A study of Homo sapiens with 4 samples.

Results

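A border is here the place where a broad domain of H3K27me3 ends and a long stretch of H3K79me2 lies next to it. The borders were chosen by measured values: H3K27me3 peaks on chromosomes 1 to 22 were joined across gaps of up to 3000 bp, domains of at least 10000 bp were kept if peaks made up at least 25% of them, and a domain edge became a border when an H3K79me2 peak of at least 5000 bp started or ended within 10000 bp of it. Of 9340 edges of 4670 domains, 81 (0.867%) were borders. They belonged to 76 domains, 5 of which had a border at both edges, and to 77 of the 12247 H3K79me2 peaks of at least 5000 bp. Positions and lengths of peaks of both marks served this choice and are given as a description only.

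The peaks came from MCF10A, an immortalised line of human breast epithelium that does not form tumours, cultured in MEGM supplemented with cholera toxin at 100 ng/ml. Chromatin immunoprecipitation and sequencing was done for H3K4me3 (Millipore antibody), H3K27me3 (Abcam antibody) and H3K79me2 (Abcam antibody), with 1 library each, and an input library without a peak list analysed here brings the total to 4. All libraries share the line and medium, and the labels give no treatment contrast, so the comparisons are between marks along the same genome. There is no replicate check of any value, no test is given, and the read depth behind the peak lists is unknown.

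H3K27me3 is written by Polycomb repressive complex PRC2 and covers silent genes, often those of other lineages, in blocks. H3K79me2 is written by DOT1L, which travels with elongating RNA polymerase II, and marks the first part of transcribed genes. H3K4me3, written by the SET1 and MLL enzymes, sits at active or poised promoters and was not used to choose the borders. Cells in bulk were measured, so a mixture of cells or alleles carrying either mark and 1 chromatin fibre carrying both cannot be told apart.

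The sequences below are the promoters and microRNAs that lie at the borders to which the results return. Promoters run from 250 bp before to 50 bp after the gene start, 5′ to 3′ on the gene's strand, from RefSeq on GRCh38.p14, with each CpG dinucleotide in capitals. VPS50 encodes a subunit of an endosomal recycling complex, and its start lies 81 bp from that of HEPACAM2, an adhesion protein gene on the other strand that is covered by H3K27me3, so both starts fall within this stretch. NDUFAF4 (an assembly factor of respiratory complex I), UMPS (the enzyme of the last steps of UMP synthesis) and IGF1R (the receptor of insulin-like growth factor 1) start within 1000 bp of the H3K79me2 peak end that faces a domain. POU4F1 (a transcription factor of sensory neurons) and HEMGN (a gene of blood cell precursors) start inside a domain with a border. These stretches hold 15 CpG dinucleotides at VPS50, 28 at NDUFAF4, 23 at UMPS, 55 at IGF1R, 47 at POU4F1 and 2 at HEMGN.
VPS50, chr7:93232116-93232415, plus strand: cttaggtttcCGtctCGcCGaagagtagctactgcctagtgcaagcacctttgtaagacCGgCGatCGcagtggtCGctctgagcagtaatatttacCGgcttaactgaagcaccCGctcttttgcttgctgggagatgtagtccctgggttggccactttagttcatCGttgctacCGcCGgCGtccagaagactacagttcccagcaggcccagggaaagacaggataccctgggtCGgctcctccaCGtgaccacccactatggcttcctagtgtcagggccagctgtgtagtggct
NDUFAF4, chr6:96897842-96898141, minus strand: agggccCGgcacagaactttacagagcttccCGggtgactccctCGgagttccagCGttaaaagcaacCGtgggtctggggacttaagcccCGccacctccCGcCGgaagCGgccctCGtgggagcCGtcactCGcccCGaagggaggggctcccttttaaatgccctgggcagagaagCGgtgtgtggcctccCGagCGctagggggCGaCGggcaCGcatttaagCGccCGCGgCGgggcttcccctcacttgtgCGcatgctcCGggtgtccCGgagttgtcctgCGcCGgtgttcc
UMPS, chr3:124730202-124730501, plus strand: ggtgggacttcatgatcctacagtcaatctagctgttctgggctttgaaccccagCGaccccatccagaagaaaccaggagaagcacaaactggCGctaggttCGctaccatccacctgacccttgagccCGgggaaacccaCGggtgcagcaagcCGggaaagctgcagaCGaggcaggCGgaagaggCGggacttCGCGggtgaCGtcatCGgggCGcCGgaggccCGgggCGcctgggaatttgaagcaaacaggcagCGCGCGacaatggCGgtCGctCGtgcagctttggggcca
IGF1R, chr15:98648289-98648588, plus strand: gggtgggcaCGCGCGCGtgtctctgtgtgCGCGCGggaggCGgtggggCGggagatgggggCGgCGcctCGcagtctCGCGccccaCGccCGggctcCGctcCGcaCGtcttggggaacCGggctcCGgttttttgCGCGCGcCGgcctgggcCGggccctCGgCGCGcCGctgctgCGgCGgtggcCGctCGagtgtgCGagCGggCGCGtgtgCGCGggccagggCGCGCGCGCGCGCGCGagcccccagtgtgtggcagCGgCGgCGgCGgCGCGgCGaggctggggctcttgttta
POU4F1, chr13:78603503-78603802, minus strand: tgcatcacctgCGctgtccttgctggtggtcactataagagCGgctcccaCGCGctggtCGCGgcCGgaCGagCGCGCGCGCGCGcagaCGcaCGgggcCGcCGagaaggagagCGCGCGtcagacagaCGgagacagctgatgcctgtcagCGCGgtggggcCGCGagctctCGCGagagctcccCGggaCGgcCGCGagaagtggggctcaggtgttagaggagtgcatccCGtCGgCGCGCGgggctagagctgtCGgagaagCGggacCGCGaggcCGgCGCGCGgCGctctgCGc
HEMGN, chr9:97944803-97945102, minus strand: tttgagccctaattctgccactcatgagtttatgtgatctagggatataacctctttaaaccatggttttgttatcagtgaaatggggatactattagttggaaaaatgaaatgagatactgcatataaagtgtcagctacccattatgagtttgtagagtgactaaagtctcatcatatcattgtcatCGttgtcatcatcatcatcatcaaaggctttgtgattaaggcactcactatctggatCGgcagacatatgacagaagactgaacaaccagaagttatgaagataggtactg
The microRNAs are those of the miR-17-92 cluster, which lie in MIR17HG, their host transcript, under the H3K79me2 peak of another border. The 5′ to 3′ mature sequences, all on the plus strand, carry the seed (bases 2 to 8) in capitals. RefSeq lists 12 mature arms from 6 hairpins with 9 different seeds there, and the arms shown fall into 4 seed families: miR-17-5p with miR-20a-5p, miR-18a-5p alone, miR-19a-3p with miR-19b-3p, and miR-92a-3p alone.
hsa-miR-17-5p, chr13:91350618-91350640: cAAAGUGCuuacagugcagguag
hsa-miR-20a-5p, chr13:91351072-91351094: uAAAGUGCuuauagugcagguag
hsa-miR-18a-5p, chr13:91350756-91350778: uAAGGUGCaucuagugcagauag
hsa-miR-19a-3p, chr13:91350939-91350961: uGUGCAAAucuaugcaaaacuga
hsa-miR-19b-3p, chr13:91351245-91351267: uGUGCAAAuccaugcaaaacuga
hsa-miR-92a-3p, chr13:91351361-91351382: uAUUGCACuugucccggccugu

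The label was checked against marker genes. All 11 basal mammary markers had H3K4me3 and H3K79me2 over at least 500 bp of the gene. In every group of markers 0 had at least 25% of the gene in H3K27me3 peaks, so this mark did not set the basal markers apart. The share of all genes that pass the 500 bp limit is not given. Of all protein-coding genes, 30.3% had no base in an H3K79me2 peak, which is another limit. Of 8 luminal markers 6 had H3K4me3 and 6 had H3K79me2. Of 6 fibroblast, 5 immune and 4 endothelial markers, 3 each had H3K4me3 and 1 each had H3K79me2. None of these markers lay at a border. The deposited lists hold 65793 peaks of H3K4me3, 353923 of H3K27me3 and 109105 of H3K79me2 on chromosomes 1 to 22.

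Some borders lie in long stretches of near-identical copies, where the copies' reads are hard to tell apart. On chromosome 1, between positions 145219512 and 149605019, there were 5, and on chromosome 5, between positions 69715974 and 71453185, there were 8. Both stretches were picked out after the values were seen. On chromosome 5, 7 of the 8 borders had H3K4me3 of 6.505- to 9.83-fold and H3K79me2 of 3.03- to 3.48-fold, while the border of BDP1 had 14.4-fold H3K4me3 and 3.93-fold H3K79me2. Under 5 of all borders lay a record of a GUSB pseudogene: GUSBP3, GUSBP14, GUSBP15 and GUSBP16 on chromosome 5 and GUSBP2 on chromosome 6. How reads were placed among the copies was not tested, and shares are also given without these 13 borders. The border of GUSBP2 stayed in those shares, and copied sequence outside both stretches was not looked for.

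The H3K79me2 peak ended short of the domain at most borders. In 69 of 81 (85.2%) it lay wholly outside, with a gap of 202 to 9941 bp and a median of 5104 bp. In 7 the peak ran across the edge into the domain, in 5 it ran from its nearest end inward over the domain, and in 0 it lay wholly inside the domain. The marks shared bases at 12 borders (14.8%), over 574 to 7794 bp with a median of 3223.5 bp. The median distance from the edge to the nearest end of the peak was 4268 bp over all borders, under a limit of 10000 bp set by the rule. Median length of the H3K79me2 peaks was 9909 bp (range 5056 to 92507 bp), beside 10826 bp for all peaks of at least 5000 bp. Fold enrichment, the authors' value for each peak over the caller's background, had a median of 3.26 (2.23 at SYBU to 5.71 at YWHAB), beside 2.97 for all long peaks.

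On the domain side the borders looked much like other domains in length. Border domains had a median of 19781.5 bp (10028 to 154551 bp) and the other 4594 domains of 19277 bp. Their median share in H3K27me3 peaks was 40.3%, beside 34.9% for the others, and their highest peak had a median fold of 5.36, beside 4.65. Peaks were thus somewhat denser in these domains, by a difference that has no replicate check.

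**Figure D1:**
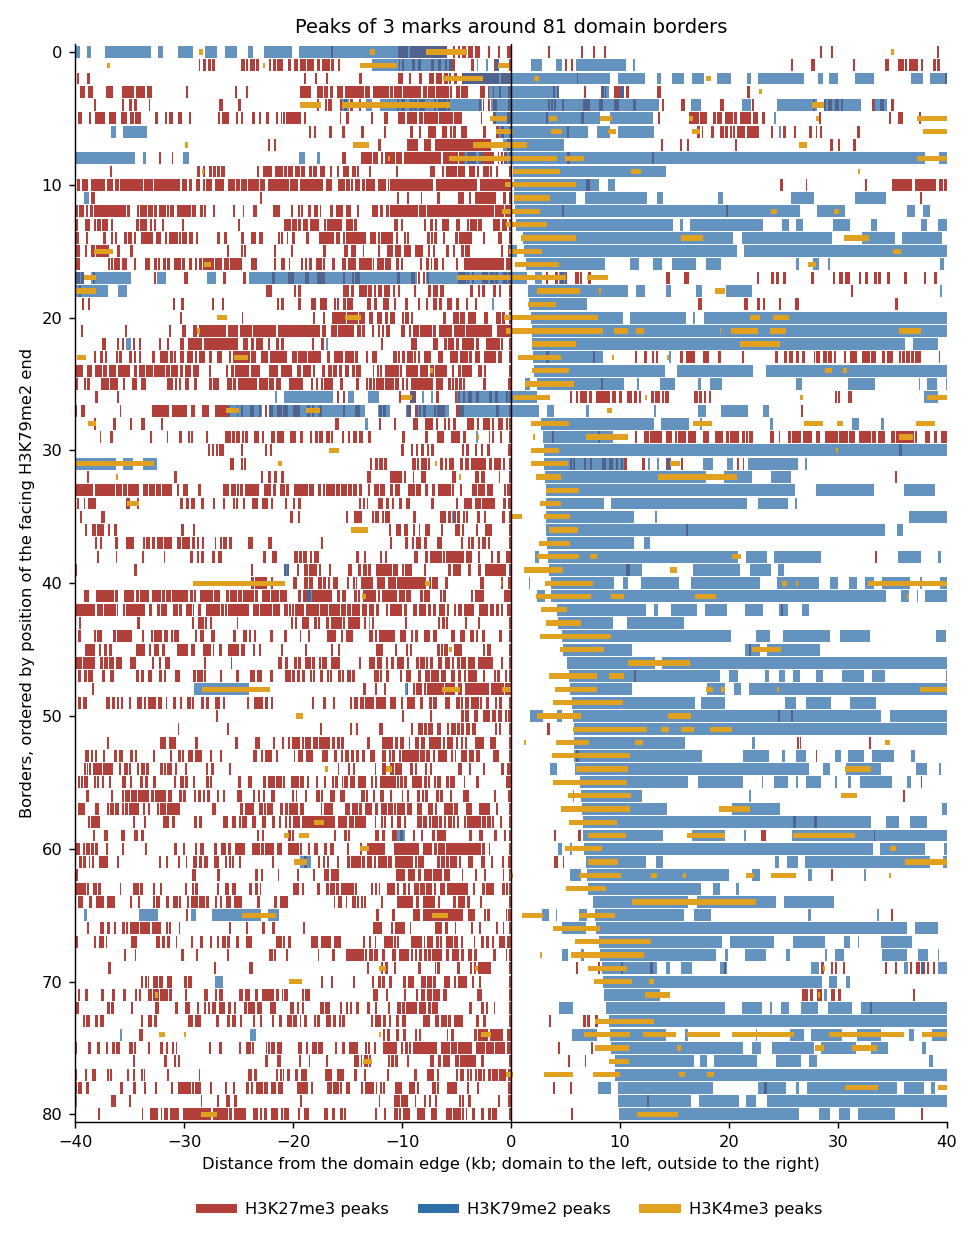
Each line of the plot is 1 of the 81 borders, in the order of the position of the facing H3K79me2 end, and the horizontal axis gives the distance from the domain edge in kb with the domain to the left. Red blocks are H3K27me3 peaks, blue blocks H3K79me2 peaks and orange blocks H3K4me3 peaks. Most blue blocks start to the right of the edge, in 69 of 81 borders with a gap, and an orange block often stands at their left end.

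Members just inside each limit of the rule were as follows. The largest distances kept were 9941 bp (PSMA5), 9806 bp (WDR4) and 9799 bp (chromosome 7, 76659187), and the nearest left out were 10016, 10103 and 10303 bp. The shortest H3K79me2 peaks kept measured 5056, 5085 (NBPF12) and 5093 bp (TSPAN17), and the longest left out 4767, 4663 and 4391 bp. The smallest domains kept, of 10028 bp at KDM7A, 10077 bp at WASF3 and 10311 bp at GNAS, stand beside 9990, 9899 and 9845 bp left out. The smallest shares in peaks kept were 25.05%, 25.6% and 26.4%, and the largest left out 24.9%, 24.5% and 23.2%. The members therefore grade into the edges that were left out on all 4 limits.

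H3K4me3 stood at nearly every border. A peak lay within 10000 bp of the edge at 73 of 81 borders (90.1%), beside 1637 of 9259 other edges (17.7%). Outside the duplicated stretches it was 60 of 68 (88.2%). Many other edges have no gene nearby, so edges with an end of a protein-coding gene within 10000 bp were also compared: 50 of 54 such borders (92.6%) and 628 of 1385 such other edges (45.3%) had H3K4me3. Peaks at borders were also strong. At least 10-fold enrichment was reached at 61 borders (75.3%) and at 255 other edges (2.75%). The strongest peak within 10000 bp had a median of 15.5-fold and 3849 bp at the 73 borders, and of 3.13-fold and 685 bp at the 1637 other edges. A long H3K79me2 peak within reach was what chose the borders, and such peaks go with transcribed genes, so these shares describe the borders and are not independent of a gene being near.

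The highest H3K4me3 folds stood at MIER3 (a corepressor of the ELM-SANT family) with 27.1-fold over 3279 bp, at FKBP4 (an HSP90 co-chaperone) with 25.03-fold over 4031 bp, and at BCL11A (a zinc finger repressor of fetal globin) with 23.03-fold over 8555 bp. PDCD2, a chaperone in ribosome assembly, followed with 22.8-fold over 2765 bp. The next, of 22.7-fold and 5079 bp, lay in the duplicated stretch of chromosome 1 at position 145219512, where non-coding records such as LINC01145 lie under the H3K79me2 peak. At MIER3 the H3K79me2 peak of 3.09-fold and 5704 bp ended 287 bp from a domain of 10485 bp, and H3K4me3 began 268 bp outside the edge. At FKBP4 the H3K79me2 peak (3.67-fold, 6341 bp) ended 4790 bp from a domain of 12425 bp. The promoter mark thus began next to the edge at MIER3 and 4462 bp outside it at FKBP4.

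H3K4me3 marked the end of the H3K79me2 peak that faced the domain far more often than the other end. Within 2000 bp of the facing end there was a peak at 71 of 81 borders (87.7%), and within 2000 bp of the far end at 19 (23.5%). Taking both ends of all 12247 long H3K79me2 peaks together, 10793 of 24494 ends (44.1%) had one. The facing end alone was marked at 56 borders, both ends at 15, the far end alone at 4 (TSPAN17, BRD2, ENY2 and 1 border of GNAS) and neither end at 6, OBI1 and WDR4 among them. Over all long H3K79me2 peaks, exactly 1 end was marked in 6803 of 12247 (55.5%). At the facing ends H3K4me3 had a median of 15.8-fold (n = 71), and at the far ends of 4.58-fold (n = 19). Where the rule allowed either end of an H3K79me2 peak to lie near the domain, it was mostly the end with the promoter mark that did.

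**Figure D2:**
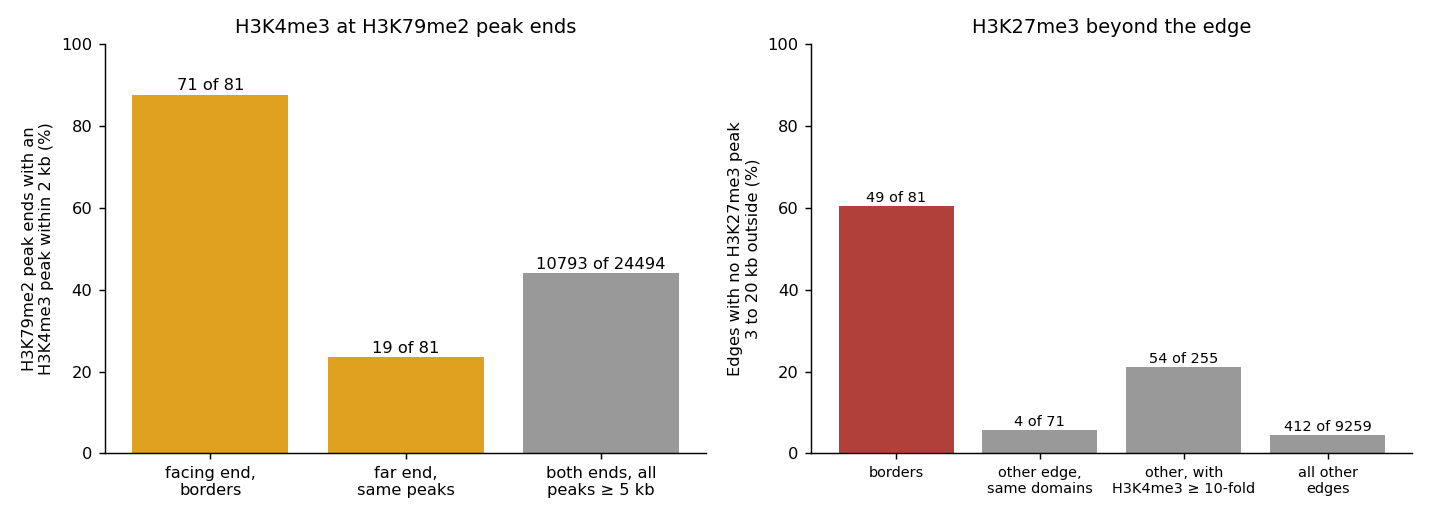
Bars in the left panel give the percentage of H3K79me2 peak ends with an H3K4me3 peak within 2 kb, for the facing and far ends at the 81 borders and for both ends of all peaks of at least 5 kb: 71 of 81, 19 of 81 and 10793 of 24494. Bars in the right panel give the percentage of domain edges with no H3K27me3 peak from 3 to 20 kb outside, 49 of 81 borders beside 412 of 9259 other edges, and both vertical axes run from 0 to 100%.

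H3K4me3 often reached into the gap between the marks. The strongest peak lay wholly outside the domain at 58 of 73 borders (79.5%), crossed the edge at 10 and lay inside the domain at 5. In 54 of the 69 borders with a gap (78.3%), H3K4me3 reached into that gap. In bins of 1000 bp, mean H3K4me3 coverage over borders was highest at 4000 to 5000 bp outside, at 44.2%, beside 0.887% at the other edges. H3K79me2 coverage was highest further out, at 10000 to 11000 bp, with 82.2%. The rule, which takes H3K79me2 peaks with an end within 10000 bp, sets where that maximum lies, so no order of the marks is read from it. In the first 1000 bp outside, coverage was 17.1% for H3K4me3 and 17.3% for H3K79me2.

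**Figure D3:**
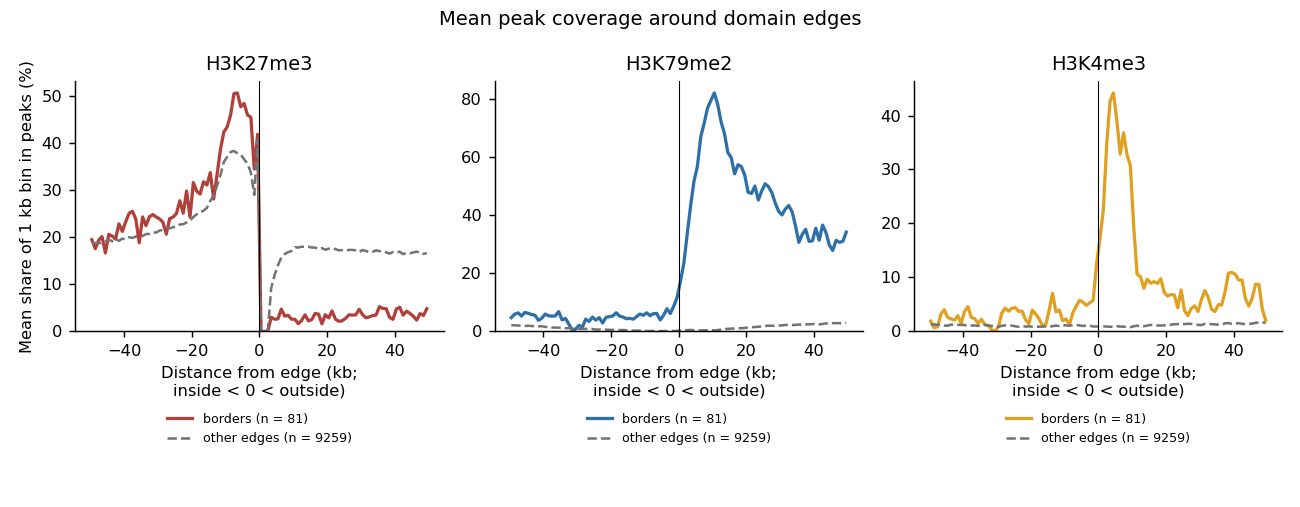
Each panel shows for 1 mark the mean percentage of each 1 kb bin in peaks, from 50 kb inside the domain (negative distances) to 50 kb outside, with a coloured line for the 81 borders and a dashed grey line for the 9259 other edges. The H3K4me3 line peaks at 44.2% between 4 and 5 kb, the H3K79me2 line at 82.2% between 10 and 11 kb, and H3K27me3 is 0 in the first 3 kb outside by construction; vertical scales differ between panels.

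H3K27me3 peaks beyond the edge were counted next. From 3000 to 20000 bp outside, 49 of 81 borders (60.5%) had no H3K27me3 peak, or 40 of 68 (58.8%) without the duplicated stretches, beside 412 of 9259 other edges (4.45%). The opposite edges of the same domains had none in 4 of 71 cases (5.63%). Other edges with H3K4me3 of at least 10-fold within 10000 bp had none in 54 of 255 cases (21.2%). The mean share of this window in H3K27me3 peaks was 2.92% at borders, 15.7% at the opposite edges, 8.34% at the other edges with strong H3K4me3 and 16.4% at all other edges. H3K27me3 peaks were thus sparser outside borders than outside the opposite edges of the same domains. The rule sets a long H3K79me2 peak end within 10000 bp of a border, and the opposite edges have none. These shares therefore describe the borders and are not independent of the rule. H3K27me3 beside long H3K79me2 peaks in general was not computed. The share of borders without them ran from 41.1% to 95.5% under other settings of the rule, so that under some of these most borders had such a peak.

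Within the domain the fold of H3K27me3 did not differ in a common direction between its ends. For the 71 domains with 1 border, the median fold of peaks in the last 5000 bp was higher at the border than at the opposite edge in 33 and lower in 35, with a median difference of 0 and a range of -1.22 (chromosome 22, 24674256) to 4.05 (MIR17HG). Peaks covered a median of 40.8% of those 5000 bp at the border and 37.2% at the opposite edge. The border end was the more covered in 44 domains and the less covered in 27. In the bin from 7000 to 8000 bp inside, mean coverage was 50.5% at borders and 38.3% at other edges. A dense rim at the border was thus seen in some domains and its reverse in others.

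Genes under the H3K79me2 peaks mostly had their start towards the domain. A protein-coding gene lay under the peak at 62 borders, 58 different genes in all. Strand was known for 50 of these borders, and at 42 (84.0%) the gene record started nearer the domain than it ended, whatever start sites lie inside it. At 40 of the 42, H3K4me3 lay within 1000 bp of the start, the others being ELAVL2 and AEN. At 34 the start lay beyond the edge, on the side away from the domain, at a median of 3818.5 bp. These distances ran from 412 bp (CCDC66) to 15201 bp (GNAS, whose start lies inside the neighbouring domain). The starts of WASF3, ARHGEF7 and TUBGCP3 lay beyond the other edge of the domain and are not among the 34. The 8 borders with the reverse direction belonged to ATF3, TSPAN17, BRD2, NDUFAF4, HYLS1, CIRBP, WDR4 and the predicted gene LOC124904409. This share is not independent of the rule, which took only H3K79me2 peaks with either end near the domain. How far the rule sets the direction was not tested. Direction over all long H3K79me2 peaks was not computed.

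**Figure D4:**
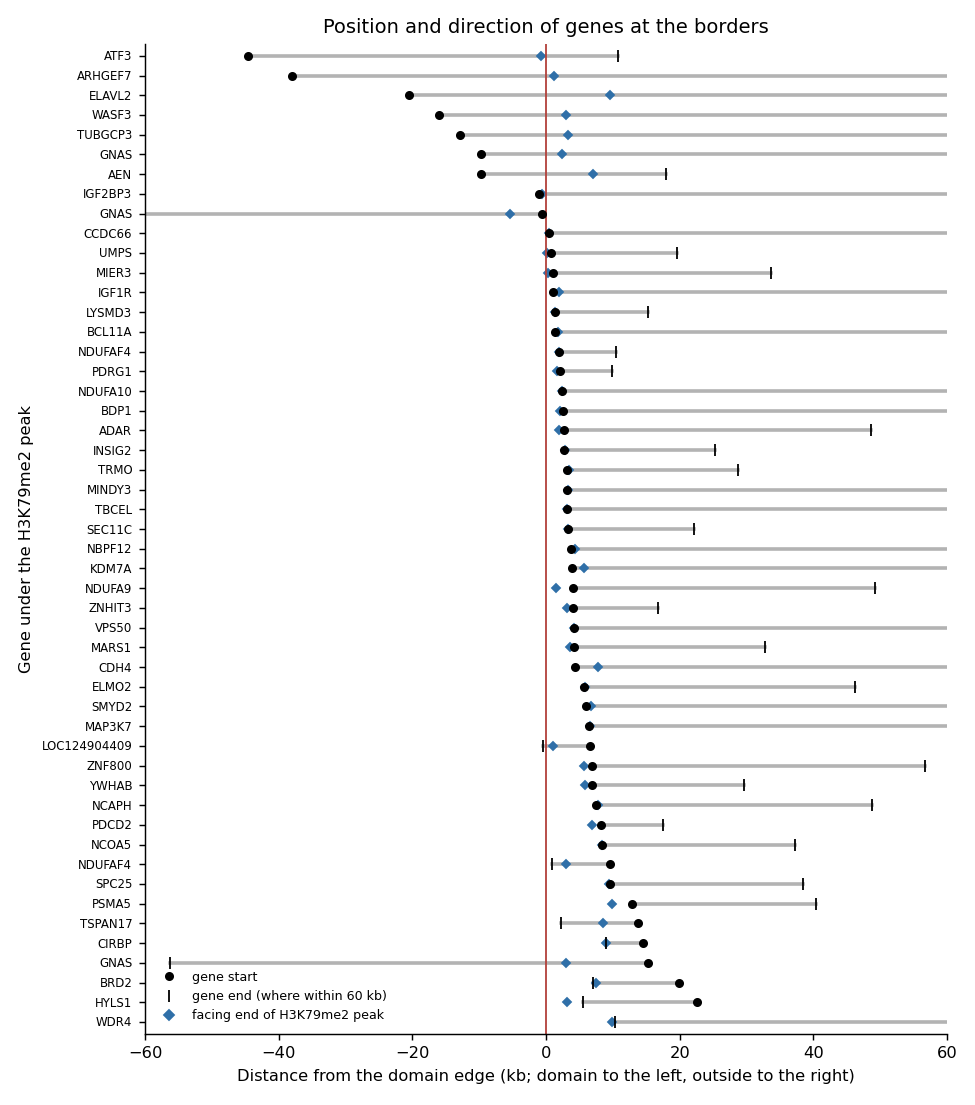
Each line is the gene under the H3K79me2 peak at 1 of the 50 borders with a known strand, drawn by distance in kb from the domain edge at 0 (red line, domain to the left) and ordered by gene start. Dots are gene starts, ticks gene ends within 60 kb and blue diamonds the facing end of the H3K79me2 peak. In 42 of 50 the dot lies nearer the red line than the gene's other end.

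The genes most strongly marked on both sides were led by MIR17HG, on chromosome 13. There the domain of 60812 bp was 68.6% in H3K27me3 peaks and ended at position 91347484. An H3K79me2 peak of 4.45-fold and 7780 bp began 250 bp beyond, and an H3K4me3 peak of 17.0-fold and 6554 bp ran from 564 bp inside the domain to 5989 bp outside. H3K27me3 peaks in the last 5000 bp had a median of 6.75-fold and covered 95.9%, while at the opposite edge these values were 2.70-fold and 67.8%. The mature microRNAs printed above lie 3134 to 3877 bp beyond the edge, all under both the H3K79me2 and the H3K4me3 peak. The 4 seed families shown thus lie just beyond the end of an H3K27me3 domain.

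IGF1R, on chromosome 15, had the second longest H3K79me2 peak, of 78019 bp and 4.53-fold. It began 1893 bp from a domain of 31428 bp that was 74.6% in H3K27me3 peaks and held no protein-coding gene. H3K4me3 of 19.3-fold over 8938 bp ran from 492 bp inside the domain to 8445 bp outside, and the gene started 1093 bp from the edge. Near-complete H3K27me3 coverage, 89.4% of the last 5000 bp, thus met the promoter mark directly upstream of this gene.

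NDUFA10, a subunit of respiratory complex I, had H3K79me2 of 5.06-fold over 7938 bp, 2407 bp from a domain of 43477 bp on chromosome 2. In that domain lie the olfactory receptor genes OR6B3, with 68.7% of its length in H3K27me3 peaks and no H3K79me2, and OR6B2 with 30.9%. MAP3K7, the kinase TAK1, had H3K79me2 of 3.87-fold over 26452 bp and H3K4me3 of 13.3-fold, 6611 bp from a domain of 34698 bp. PDCD2 had H3K79me2 of 3.62-fold, 6913 bp from a domain of 32309 bp on chromosome 6. At BDP1, a subunit of the RNA polymerase III factor TFIIIB, the H3K79me2 peak began 2139 bp from a domain of 136288 bp. WRN, the RecQ helicase of Werner syndrome, had H3K79me2 of 3.65-fold over 26149 bp only 341 bp from a domain of 43968 bp on chromosome 8. That domain held PURG, a gene of the Pur-alpha family, with 62.6% of its length in H3K27me3 peaks. At these 5 borders H3K4me3 ranged from 13.3-fold (MAP3K7) to 22.8-fold (PDCD2), so all were strongly marked at the promoter.

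The longest domain with a border measured 154551 bp, on chromosome 8, and held PKHD1L1, a fibrocystin-like gene of hair cells, with 56.3% in H3K27me3 peaks. EBAG9 stood beyond its border with H3K79me2 of 3.10-fold over 10413 bp and H3K4me3 of 15.6-fold over 3666 bp. At its other end PKHD1L1 reached a second domain, of 21367 bp, whose border faced ENY2, a subunit of the SAGA complex, with H3K79me2 of 4.54-fold and no H3K4me3 within 10000 bp of the edge. Further along, a domain of 111019 bp had its border inside SYBU, the kinesin adaptor syntabulin, where H3K79me2 of 2.23-fold began 9131 bp outside. This stretch of chromosome 8 thus held borders of 3 domains that faced 3 different genes.

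The other long H3K79me2 peaks were those of XKR6, ELAVL2, WASF3 and IGF2BP3. XKR6, of the XK-related family, had the longest, of 92507 bp and 3.37-fold, 9020 bp from a domain of 33995 bp. At ELAVL2, an RNA-binding protein best known from neurons, the domain covered 20510 bp of the gene from its start, and an H3K79me2 peak of 50388 bp began 9503 bp outside. H3K4me3 of 13.6-fold lay there at 7519 to 10028 bp outside the edge, inside the gene record, and none within 1000 bp of the recorded start. At WASF3, an actin regulator of the WAVE family, the domain lay 10077 bp long inside the gene's first part, with H3K4me3 of 18.2-fold at 1813 to 4376 bp beyond the edge and an H3K79me2 peak of 39585 bp after it. IGF2BP3, an mRNA-binding protein of fetal tissue, had a domain over its start that was 76.3% in H3K27me3 peaks, with a highest fold of 9.24, and its H3K79me2 peak of 38506 bp shared 574 bp with it. The recorded starts of ELAVL2 and WASF3 lay 20509 and 16032 bp from the edge, on the side away from the H3K79me2 peak, and that of WASF3 beyond the far edge of the domain.

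The domain edge lay inside a protein-coding gene at 21 of 81 borders (25.9%), beside 36.5% of the other edges. At 12 of the 21 it was the gene under the H3K79me2 peak itself, 11 genes in all, among them ATF3, WASF3, ARHGEF7, TUBGCP3, ELAVL2, IGF2BP3, SYBU, GNAS, AEN and LOC124904409. In these genes both marks divided a single gene record. ARHGEF7, a Rac exchange factor, had 49.96% of its length in H3K79me2 peaks and 4.42% in H3K27me3 peaks, with the edge 37971 bp from its start. TUBGCP3, of the gamma-tubulin ring complex, had 32.6% and 3.40%. AEN, a nuclease of apoptosis, had 43.1% and 14.5%, and SYBU had 36.1% and 15.9%. The opposite case, an edge within another gene only, was found at 9 borders.

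The most shared bases were found at small domains on chromosomes 9 and 20 and at 1 larger domain on chromosome 10. On chromosome 9, a domain of 10506 bp from 11052912 to 11063417 had a border at each edge, H3K79me2 peaks of 2.50- and 2.52-fold reached over it, and 7794 bp were shared with the second. No protein-coding gene lay there, and H3K4me3 was 4.74-fold over 9960 bp. At GNAS on chromosome 20, the imprinted gene of the stimulatory G protein, 1 H3K79me2 peak of 3.09-fold from 58844594 to 58851932 made 3 borders with 2 domains and shared 4930 bp with the first. H3K4me3 there was 11.3-fold over 3398 bp, beginning 200 bp outside that domain. On chromosome 10, at 79675988, a peak of 2.26-fold shared 4803 bp with a domain of 35909 bp, without a protein-coding gene. ATF3, a stress-induced transcription factor, had a smaller overlap of 721 bp, with H3K27me3 of a median 6.06-fold in the last 5000 bp and H3K4me3 of 18.9-fold at the same edge. H3K79me2 at these places was between 2.26- and 3.09-fold, below the border median of 3.26.

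The domains with borders at both edges included that on chromosome 9 and the first GNAS domain, each of about the shortest length the rule allows, and 2 on chromosome 5. The latter, of 121258 bp (70590932 to 70712189) and 99575 bp (70295818 to 70395392), lie in the duplicated stretch and were flanked by H3K79me2 of 3.19- and 3.41-fold and of 3.27- and 3.48-fold. NDUFAF4 showed the reverse arrangement. Its H3K79me2 peak of 6411 bp and 3.97-fold lay between 2 domains, of 33105 bp and 51650 bp on chromosome 6, with a border 2974 bp away on one side and 2001 bp away on the other. The interval between both domains thus held this peak, and also the start of KLHL32, 1695 bp outside the edge of the second domain.

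**Figure D5:**
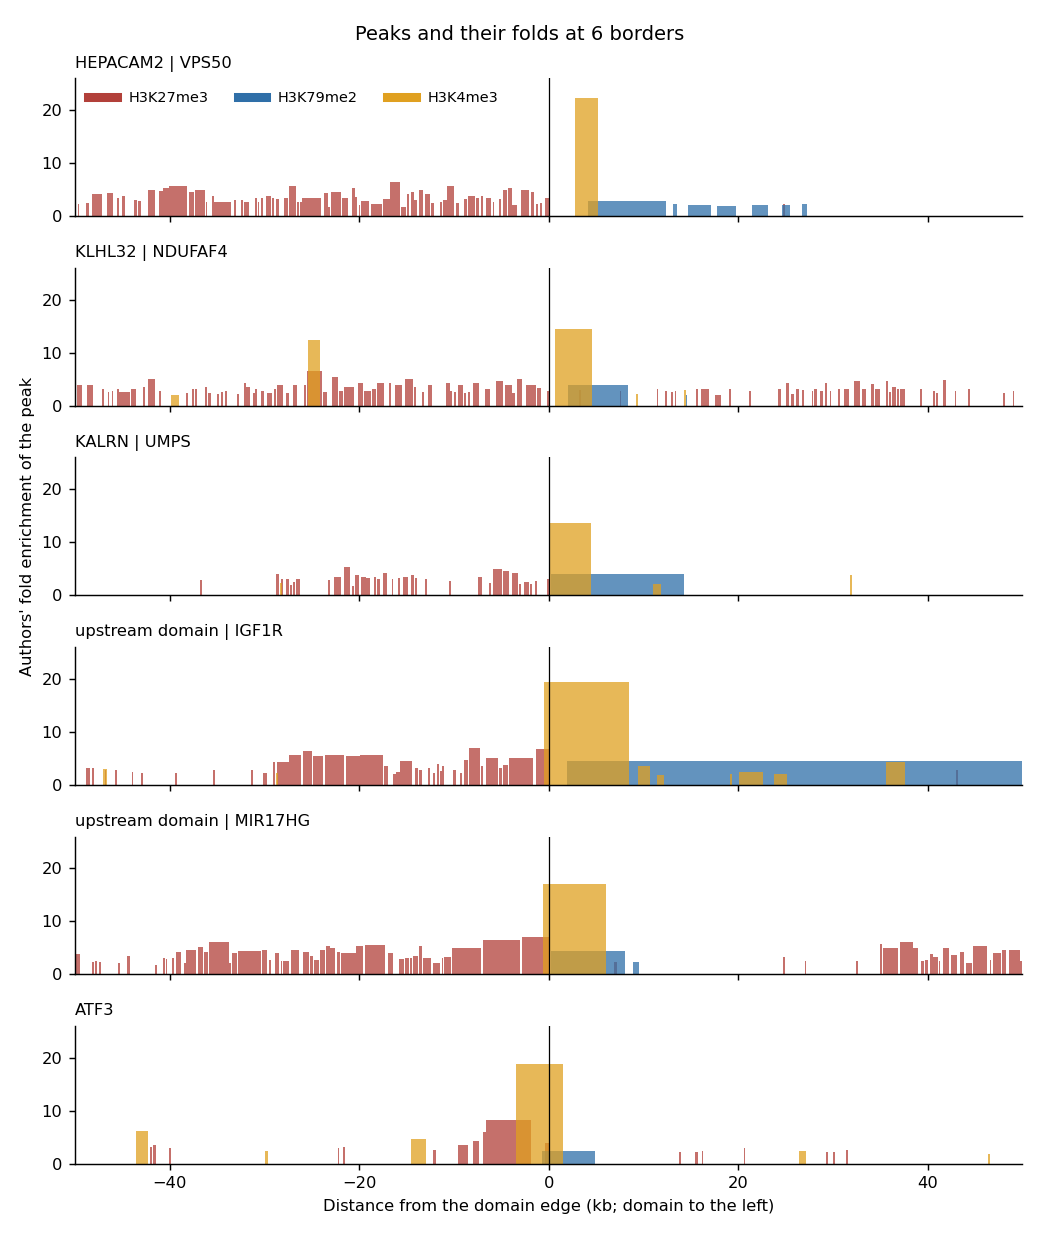
The 6 panels show the peaks from 50 kb inside to 50 kb outside the domain edge at HEPACAM2 and VPS50, KLHL32 and NDUFAF4, KALRN and UMPS, IGF1R, MIR17HG and ATF3, with distance in kb on the horizontal axis and the authors' fold of each peak as its height. Red is H3K27me3, blue H3K79me2 and orange H3K4me3; in the first 5 panels the H3K4me3 peak (13.7- to 22.4-fold) stands at the domain edge or just outside it, and at ATF3 (18.9-fold) it lies across the edge, mostly inside the domain.

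On the domain side, genes were taken within 50000 bp of the edge. At 45 of 81 borders no protein-coding gene lay in that part of the domain. The same share is not given for the other edges, so no scarcity of genes is read from it. Leaving out the genes under the H3K79me2 peak, 25 genes shared bases with that part of a domain, and 19 of them (76%) had no base in an H3K79me2 peak. Taken the same way from domains without a border, 726 of 1209 genes (60%) had none, and of all protein-coding genes 5787 of 19122 (30.3%). The 6 with such a base were ARHGAP9 (9.03% of its length), AKAP3 (7.34%), SLFN14 (4.48%), KALRN (0.253%), PKHD1L1 (0.0858%) and ADGRV1 (0.0495%). Strand was known for 15 of the 25, and 9 of these started inside the domain. Of the 9, 2 (22.2%) had H3K4me3 within 1000 bp of the start, SYPL2 (a synaptophysin-like gene of muscle) at 3.10-fold and ADGRV1 (a large adhesion receptor of hearing) at 1.94-fold. In domains without a border 208 of 544 such genes (38.2%) had it, and of all genes with a strand 10767 of 15100 (71.3%). The other 6 started outside the domain, and 4 of them had H3K4me3 of at least 10-fold within 1000 bp of the start: HEPACAM2 at 22.4-fold, DDX25 at 15.8-fold, KLHL32 at 14.4-fold and KALRN at 13.0-fold. With 9 and 25 genes, these shares describe the genes named and are not read as a difference from other domains.

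The share of the 25 genes in H3K27me3 peaks ran from 2.96% (ABCB11, the bile salt export pump) to 85.3% (PPIAL4D, in the duplicated stretch of chromosome 1). A few pairs are given as examples, chosen after their values were seen. POU4F1 had 48.6% of its length in H3K27me3 peaks and no H3K4me3 within 1000 bp of its start, 4405 bp inside a domain of 55562 bp on chromosome 13. It faced OBI1, a ubiquitin ligase of the replication origin complex, with H3K79me2 of 2.28-fold at 8700 bp. The −log10 q of that H3K79me2 peak, 0.888, was the lowest of all borders, and no H3K4me3 lay within 10000 bp of the edge. HEMGN had 45.8% in H3K27me3 peaks and faced TRMO, a tRNA methyltransferase, with H3K79me2 of 2.63-fold and H3K4me3 of 12.0-fold. SCRT1, a neuronal repressor, had 68.3% and faced DGAT1, an enzyme of triglyceride synthesis. GLI1, the transcription factor of Hedgehog signalling, had 49.0%, in a domain that faced the methionyl-tRNA synthetase gene MARS1. There H3K79me2 was 4.92-fold and H3K4me3 16.2-fold. GLI1 was not the direct neighbour of MARS1, since ARHGAP9, with 31.3% in H3K27me3 peaks, followed it, spanned the edge and overlapped the start of MARS1. G6PC2, a glucose-6-phosphatase of pancreatic islets, had 40.2% and faced SPC25, of the kinetochore.

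The 15 domain genes with a known strand were each paired with the facing gene. The pairs were 5 divergent, 8 same-strand and 1 convergent (BRD2 with HLA-DOA), with the strand of OBI1 not given. Starts of 2 divergent pairs lay close together, 81 bp apart at VPS50 and HEPACAM2 and 192 bp at NDUFAF4 and KLHL32. The others were 10861 bp apart (SPC25 and G6PC2), 29213 bp (LYSMD3 and ADGRV1) and 40098 bp (PSMA5 and SYPL2). At VPS50 the domain ended 4048 bp short of the start of HEPACAM2, 64.8% of which was in H3K27me3 peaks with no H3K79me2. The shared promoter printed above carried H3K4me3 of 22.4-fold over 2388 bp, and the H3K79me2 peak of 2.94-fold began 4177 bp from the edge, on the VPS50 side. KLHL32, a kelch family gene, had 26.3% in H3K27me3 peaks and no H3K79me2, while H3K4me3 of 14.4-fold over 3876 bp lay over both starts. In both pairs a single H3K4me3 peak thus lay over the starts of a gene with H3K27me3 peaks and no H3K79me2 and of a gene with H3K79me2.

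At UMPS the neighbour runs on the same strand. The last 25456 bp of KALRN, a guanine nucleotide exchange factor of neurons, lay in the domain, 23.5% of the whole gene was in H3K27me3 peaks, and UMPS started 802 bp from the edge. H3K79me2 of 3.96-fold over 14055 bp began 202 bp from the edge, the smallest gap of all borders, and H3K4me3 was 13.7-fold over 4366 bp. At PSMA5, a proteasome subunit, and LYSMD3, the facing domains of 33906 and 47695 bp held SYPL2 (33.1% in H3K27me3 peaks) and ADGRV1 (14.2%). H3K79me2 was 3.71-fold at PSMA5, 9941 bp away, and 3.66-fold at LYSMD3, 1330 bp away.

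Promoter composition was taken where the RefSeq promoter holds the start of the gene record. This held for 31 of 34 facing genes that start beyond the edge, away from the domain. It held for 8 of 9 genes that start inside a domain and 12973 of 15100 promoters in all. BCL11A, CDH4 and GNAS on the facing side and EFNA2 on the domain side were left out, since their RefSeq promoter lies at another start site. The median was 26 CpG dinucleotides per promoter for facing genes (middle quartiles 20 to 30), 14 for domain genes (3.5 to 27) and 23 for all (9 to 32), with HEMGN at 2 and POU4F1 at 47 among the domain genes. Median GC content was 62.7%, 61.5% and 63.0%. With 8 domain genes of such spread, no difference between the sides is read from these medians.

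Gene lists touched the borders at 1 gene. Of 19122 protein-coding genes on these chromosomes, 64 (0.335%) had an end between a domain edge and the far end of the H3K79me2 peak, and 29 (0.152%) had an end in the domain, each within 50000 bp of the edge. Of 143 developmental transcription factors, 0 were on the active side and 1, POU4F1, on the domain side (0.699%). Lists of 52 neuronal genes, 67 signalling ligands and antagonists, 32 basal epithelial genes, 44 growth and cell cycle genes, 30 housekeeping genes and 41 genes of the enzymes of these marks and of border factors had 0 on either side. Counts this small say nothing about the lists.

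The 19 borders without a protein-coding gene under the H3K79me2 peak included 10 in the duplicated stretches. Non-coding records lay under several, among them MIR17HG, SNHG30 on chromosome 17 and the pseudogenes PDCD6P1 and PDE4DIPP1. By chromosome, borders made up 12 of 540 edges (2.22%) on chromosome 5, 11 of 668 (1.65%) on chromosome 1 and 8 of 300 (2.67%) on chromosome 20. The 3 chromosomes 4, 14 and 16 had none. Duplicated stretches held 8 of those on chromosome 5 and 5 of those on chromosome 1, and 1 H3K79me2 peak at GNAS made 3 of those on chromosome 20. With counts this small, no difference between chromosomes is read from them.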

How the data were processed

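Peak lists of 3 marks in MCF10A, 1 library each, were analysed. The aligner Bowtie2 2.3.1, the peak caller MACS2 2.1.1 and the build hg38 are named in the submitters' processing notes. The names of the deposited peaks carry a p threshold of 0.05, and those of H3K4me3 and H3K79me2 also the word broad, per the deposited lists. The treatment of duplicate reads and of the input as control was not given in the sources used here. Folds are the authors' ratio of a peak to its local background. Values of −log10 p and −log10 q were deposited with each peak, and the latter served for alternative thresholds and is given at OBI1. Each list comes from 1 library, so nothing was pooled.

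Genes and promoters came from RefSeq tables of GRCh38.p14. Of 19970 protein-coding genes, 15812 had a strand through the promoter table. Where it held no entry (all of chromosome 8, for example), no direction was given. No genome sequence was used. A border's gene was the protein-coding gene sharing most bases with its H3K79me2 peak. Windows were 10000 bp around the edge for H3K4me3, 2000 bp around an H3K79me2 peak end, 1000 bp around a gene start, 5000 bp inside the edge for H3K27me3 fold, 3000 to 20000 bp outside for its absence, and 50000 bp into the domain for genes.

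Borders named first were the 10 with the highest smaller percentile of H3K27me3 bases and H3K79me2 fold, then the 5 with the longest domain, the longest H3K79me2 peak, the most shared bases and the highest H3K4me3 fold, the 5 domains with a border at both edges, list members, and 3 members and 3 edges at each limit. Other names, among them VPS50, UMPS, ATF3, HEMGN, SCRT1, GLI1 and G6PC2, were chosen after their values were seen. Some items that the rule for names takes are not reported here. The members, lists and windows were chosen with earlier results of these data known. The outward H3K27me3 window and the peak-end comparison were added after the data were seen. Counting used Python 3.11.15 with pandas 2.3.3 and NumPy 2.4.6, figures matplotlib 3.10.9, and the code was tested on simulated peak lists. No test was made, since each mark has 1 library. Alternatives changed the joining gap, distance, lengths, share in peaks, q threshold, chromosomes and reach of H3K4me3. A gene's start was taken as the outer 5′ end of its RefSeq record, so start sites inside the record were not used, and promoters were summarised only where the RefSeq promoter holds that start.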

Additional observations from a re-analysis of the deposited data

Results flagged for a closer look

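The rule for borders covers chromosomes 1 to 22. The same steps applied to X, which the report does not use, gave a higher share of borders. On X 39 of 696 domain edges were borders (5.60%), beside 0.867% on chromosomes 1 to 22. H3K79me2 shared bases with the domain at 21 of the 39 (53.8%, beside 14.8%), and 24 (61.5%, beside 25.9%) lay inside a protein-coding gene. H3K4me3 stood within 10000 bp of the edge at 34 (87.2%), but within 2000 bp of the facing end of the H3K79me2 peak at 19 (48.7%, beside 87.7%). Only 3 (7.69%) had no H3K27me3 peak from 3000 to 20000 bp outside, beside 60.5%. At COL4A5, a basement membrane collagen gene, an H3K79me2 peak of 22395 bp and 2.74-fold covered a whole domain of 11100 bp. At RPS6KA3, a growth factor kinase gene, a peak of 12591 bp and 2.64-fold shared 11034 bp with a domain of 11889 bp. No control library with a peak list was analysed, X has 1 library per mark like the rest, and no cause was tested.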

How the results depend on the processing

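Of 136 values recomputed under 18 alternatives, 101 stayed close to the reported value and 35 moved, meaning by over 1.5 times for the number of borders and outside the 95% interval over borders (exact binomial for shares) otherwise. The interval treats borders as separate, and the cause of a move was not tested beyond the change in members itself. The difference in H3K27me3 fold between both ends of a domain moved under none of its 12 alternatives (-0.14 to 0.09). Joining across 1000 bp left 24 borders, with 100% (9 of 9) of genes starting nearer the domain and 41.7% without H3K27me3 outside, and joining across 5000 bp gave 74.5% for the latter. A distance of 5000 bp gave 44 borders, 97.7% with H3K4me3 and a median distance of 2273 bp; 20000 bp gave 175, 64.6%, 10826 bp and 41.1% without H3K27me3 outside. H3K79me2 peaks of at least 2000 bp raised H3K4me3 at the far end to 42.4%, and of at least 10000 bp left 42 borders. Domains at least 50% in peaks left 20 borders, 25% sharing bases, a median of 3093 bp, 45% inside a gene and 45% without H3K27me3 outside. Domains of at least 20000 bp left 40 borders, 2.5% sharing bases. Peaks with q of 0.05 or below left 22 borders, 4.55% sharing bases, a median of 6057 bp, 100% (9 of 9) of genes starting nearer, 95.5% with H3K4me3 at the facing end and 95.5% without H3K27me3 outside. H3K4me3 and H3K79me2 peaks with −log10 q of at least 5 left 11 borders, 0% sharing bases and 72.7% without H3K27me3 outside. With X added 27.5% shared bases, 37.5% lay inside a gene, 75% had H3K4me3 at the facing end and 43.3% no H3K27me3 outside. H3K4me3 within 5000 bp of the edge was found at 72.8%, and within 5000 bp of the far end at 55.6%. Leaving out the duplicated stretches, or keeping 1 border per domain and H3K79me2 peak, moved no value. Both settings, and all alternatives for the peak ends and for H3K27me3 outside, were chosen after seeing the data. No paired analysis was possible because the labels give no replicate numbers and each mark has 1 library. Read depth, and with it the chance of missing weak peaks, is unknown.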
